A study of Mus musculus with 74 samples.

Results

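The genes described here encode the extracellular matrix and the families that cut or protect it, on 74 two-channel mouse arrays that set cells given TGF-β against cells without it. The members were all probes with a single gene symbol from the collagen, laminin, nidogen, fibronectin, fibrillin, fibulin, tenascin, Sparc, thrombospondin, Postn, Tgfbi, Lox, Mmp, Timp, Adam and serpin families. This gave 79 of the 8976 probes, for 59 genes in 12 role groups. All 79 matched the mouse RefSeq gene table. Of all probes 7348 have a single symbol, 399 several and 1229 none, so a gene carried only by the last kinds is outside the set. Several matrix genes best known as TGF-β targets had no single-symbol probe, among them Col1a2, Col4a1, Fbn1, Thbs1, Postn, Mmp9, Mmp13, Timp1 and Timp3.

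The arrays form 5 lines, S2KO, U0126, S2WT, S3KO and S3WT, each at 0, 0.3, 1, 2 and 4 h with TGF-β. Each time had 3 arrays, except 2 for S3KO at 1 h. S2KO and S3KO are read as knockout lines and S2WT and S3WT as their wild-type counterparts. The labels do not spell out S2 and S3, while the study they match worked with mouse embryonic fibroblasts lacking Smad2 or Smad3. The channel labels of the U0126 arrays name S2WT with U0126, an inhibitor of the kinase MEK, in both channels, although the titles set S2WT against U0126. At 0 h neither channel had TGF-β. The channel labels of S2WT at 4 h name 2 h, and those of S3KO at 0.3 h name no TGF-β in either channel, and for both the title was followed. Whether a line is 1 clone, and whether replicates are separate cultures, is not given, so p-values measure the spread between these arrays alone, and that spread may be technical.

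Each value is a log2 ratio, most likely with TGF-β over without, centred on the median probe of its array. The direction is not stated in the sources used here. A ratio gives no level, so it cannot show which matrix genes are abundant, whether a knockout lacks its gene or which kind of cell was sampled. Fewer cells of a type and less RNA per cell cannot be told apart either. Between 7688 and 8713 probes were measured per array. On 3 of the 14 S3KO arrays the ratios ran against the pattern that the 0 h arrays of the other lines share: the correlation across probes was -0.16 and -0.10 for replicates 1 and 2 at 0 h and -0.38 for replicate 2 at 1 h, against 0.31 to 0.65 on the other S3KO arrays. For members with a called change in S3KO, or against a baseline that holds its 0 h arrays, the value is also given without these arrays.

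TGF-β binds receptor kinases that phosphorylate Smad2 and Smad3, which enter the nucleus with Smad4. In fibroblasts the pathway is known for raising collagens, fibronectin and inhibitors of matrix breakdown. Fibrillar collagens and fibronectin form the tensile network, laminins and nidogens build basement membranes, and matricellular proteins such as Tnc and Sparc tune how cells attach. Lysyl oxidases crosslink collagen. Mmp, Adam and Adamts enzymes cut matrix and cell surface proteins, while Timps and many serpins inhibit proteases.

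Over the 1, 2 and 4 h arrays, the matrix and protease genes gave almost no change that passed the test. Against the 0 h arrays of the same line, limma called 0 of 69 tested members in S2KO, 0 of 73 in U0126, 0 of 68 in S2WT, 2 of 60 in S3KO and 0 of 75 in S3WT. A probe is called when its adjusted p, by Benjamini-Hochberg over all tested probes, is under 0.05. The same contrasts called 0.515% of all tested probes in S2KO, 0.0719% in U0126, 0.192% in S2WT, 1.53% in S3KO and 0.12% in S3WT. Counts this near the background do not set the members apart. At an unadjusted p under 0.05 limma had 6 members in S2KO (8.22% of all tested probes), 6 in U0126 (6.35%), 1 in S2WT (7.8%), 9 in S3KO (10.8%) and 3 in S3WT (5.47%).

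The 0 h groups of the 5 lines were also pooled, which gives a baseline of 15 arrays. Against it, limma called 0 of 62 members in S2KO, 1 of 63 in U0126, 0 of 61 in S2WT, 0 of 57 in S3KO and 0 of 63 in S3WT. The background was 2.49% of all tested probes in S2KO, 0.782% in U0126, 1.27% in S2WT, 0.0141% in S3KO and 0.146% in S3WT. At an unadjusted p under 0.05 there were 5 members in S2KO (14.9% of all tested probes), 12 in U0126 (10.6%), 5 in S2WT (12.3%), 4 in S3KO (5.17%) and 7 in S3WT (8.41%). The U0126 count is 19% of its tested members. The median response of the members was 0.04 in S2KO, 0.00 in U0126, 0.03 in S2WT, 0.01 in S3KO and -0.01 in S3WT. The median of all tested probes was within 0.01 of 0 in each line. These responses share their baseline arrays and are not independent of each other.

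**Figure D1:**
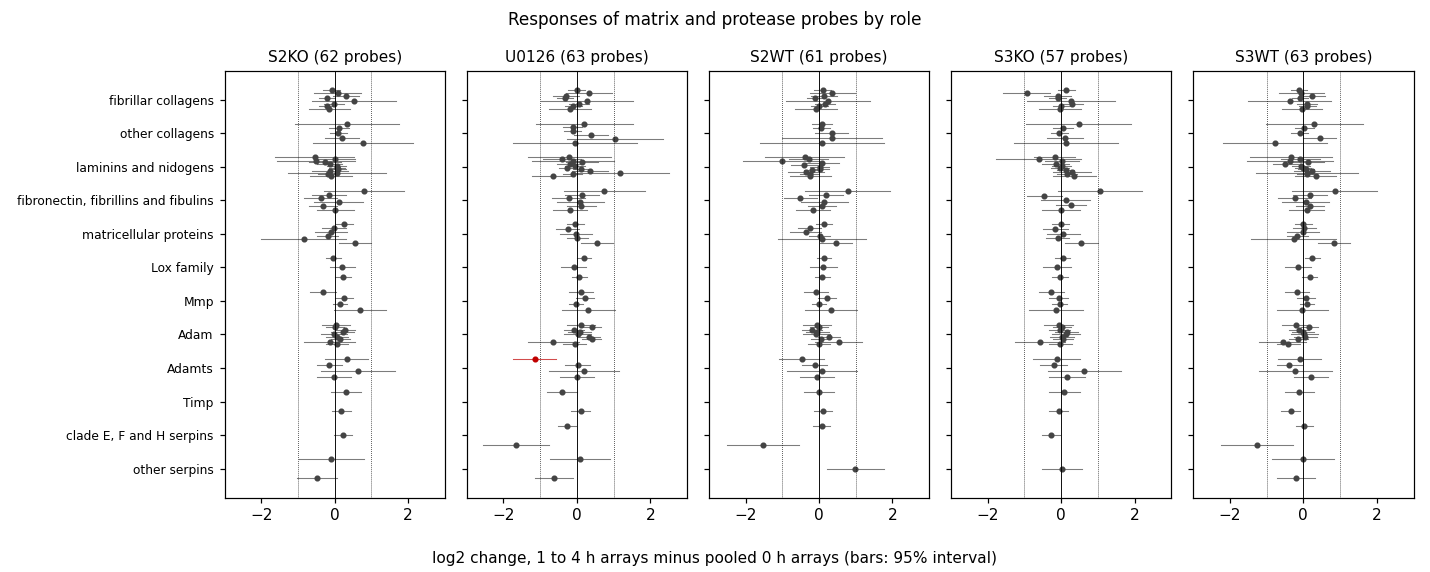
Response of each tested matrix and protease probe to 1 to 4 h of TGF-β against the pooled 0 h arrays (horizontal axis, log2) by role group (vertical axis), with a panel for each of S2KO, U0126, S2WT, S3KO and S3WT. Points are estimates, bars 95% intervals and dotted lines a 2-fold change. Most points lie between the dotted lines, and the called probe is Adamts10 in U0126 at -1.15.

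For most members the data bound the response. Against the pooled 0 h arrays, the 95% interval lay inside a 2-fold change in either direction for 51 of 62 tested members in S2KO, 48 of 63 in U0126, 48 of 61 in S2WT, 48 of 57 in S3KO and 51 of 63 in S3WT. For all tested probes that share was 74.2% in S2KO, 75.9% in U0126, 74.9% in S2WT, 79.2% in S3KO and 77.3% in S3WT. For the other members a missing call says little. Against own 0 h arrays the members' share ran from 54.8% in U0126 to 60.3% in S2WT. At 4 h alone against own 0 h arrays it ran from 35.7% in S2KO to 44.7% in S3WT. Most members were thus not bounded at 4 h within their line. For all tested probes that 4 h share ran from 34.6% in S2KO to 38.8% in S3WT.

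Fibrillar collagens, the main tensile proteins of connective tissue, had 8 tested probes, and none was called in any line. Col3a1, which forms fibrils together with type I collagen, gave -0.20 ± 0.11 in S2KO, -0.33 ± 0.11 in U0126 and -0.11 ± 0.11 in S2WT on probe 4857 (estimate ± SE, here and below). In S3KO Col3a1 gave -0.09 ± 0.11 and in S3WT -0.10 ± 0.11. Its other probe had an SE of 0.57 to 0.62 and could show only large changes. Col5a2, a chain of the collagen that helps to start fibrils, lay between -0.21 and 0.30 on its 3 probes over the lines. Col1a1, the main chain of type I collagen, gave -0.94 ± 0.32 in S3KO and -0.05 ± 0.31 in S3WT, with an adjusted p of 0.693 by limma in S3KO. That value rests on single arrays. The Col1a1 ratio was -3.10 on replicate 3 at 1 h and -3.88 on replicate 3 at 4 h in S3KO, while its other 6 arrays at 1, 2 and 4 h lay between -0.26 and 0.45.

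Among the other structural proteins, Fn1, the adhesive glycoprotein fibronectin, gave 0.02 ± 0.25 in S2KO, -0.18 ± 0.23 in U0126 and -0.17 ± 0.23 in S2WT. Fn1 gave 0.01 ± 0.26 in S3KO and 0.09 ± 0.23 in S3WT. Both probes of Col6a1, a chain of the microfibril-forming collagen VI, lay between -0.12 and 0.12 in every line. Laminins and nidogens had 12 probes for 7 genes, of which none was called at 1 to 4 h. Their medians were -0.11 in S2KO, -0.10 in U0126, -0.26 in S2WT, 0.02 in S3KO and 0.03 in S3WT. Nid1, which links laminin to collagen IV, gave -0.65 ± 0.28 in U0126 on probe 4034 and -0.11 ± 0.13 on probe 2666, and neither was called.

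Most proteases and inhibitors lay near 0, with the widest values on noisy probes. Mmp2, gelatinase A, gave 0.25 ± 0.12 in S2KO, 0.22 ± 0.13 in U0126 and 0.22 ± 0.12 in S2WT on probe 2570, with -0.06 ± 0.13 in S3KO and 0.06 ± 0.12 in S3WT. On its other probe, 4207, the estimates lay between -0.04 and 0.14. Timp2, an Mmp inhibitor that also takes part in activating Mmp2, lay between -0.41 and 0.32 on its 2 probes. Adam10 and Adam17, the main sheddases of cell surface proteins, lay between -0.19 and 0.22. Serpinf1, a serpin without protease inhibitor activity that binds collagen, gave 0.23 ± 0.12 in S2KO, -0.27 ± 0.12 in U0126 and 0.07 ± 0.12 in S2WT. In S3KO Serpinf1 gave -0.29 ± 0.12 and in S3WT 0.03 ± 0.12. None of these probes was called. Serpinf2, the plasmin inhibitor, gave -1.66 ± 0.44 in U0126 (limma, adjusted p 0.0665), -1.53 ± 0.48 in S2WT and -1.27 ± 0.48 in S3WT on probe 1690, which was too rarely measured in S2KO and S3KO to test. The pool holds S3KO 0 h replicate 3, at 4.997, and the S3WT 0 h arrays, on which limma called this probe away from 0. In S3WT all 4 h arrays of the probe lay below its 0 h arrays. Without S3KO 0 h replicates 1 and 2, which leaves 1 array in that group, Serpinf2 stood at -2.15 in U0126 and -2.03 in S2WT. The S3WT 0 h arrays were still in that pool. The other Serpinf2 probe, 6320, could not be tested against the pool in any line, so these values rest on probe 1690 alone. Serpina11 gave 0.99 ± 0.38 in S2WT and was not called.

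The 1 call against the pooled 0 h arrays was Adamts10, a secreted metalloprotease that associates with fibrillin microfibrils. In U0126 the Adamts10 ratios were -0.72, -0.51 and -0.77 at 1 h, -0.75, -0.80 and -0.88 at 2 h and -1.02, -0.86 and -0.94 at 4 h. The U0126 arrays at 0 h had 0.48, -0.45 and -0.49, so every array at 1, 2 and 4 h lay below its own 0 h arrays. Adamts10 fell by 1.15 ± 0.29 against the pool (limma, adjusted p 0.0398), while the change from its own 0 h arrays was -0.65 ± 0.46 and not called. The pool includes the S3KO 0 h arrays, where Adamts10 had 1.89, 2.97 and 0.61. Without them the value was -0.78 and the adjusted p 0.365 by limma, and without replicates 1 and 2 alone -0.90 and 0.15. With arrays not centred it was -1.15 with an adjusted p of 0.0747 by limma. The call was kept in 6 of the 24 fits that left out 1 array each, with values from -1.27 to -1.03.

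Both calls against own 0 h arrays were in S3KO, and both rested on its 0 h arrays. Tnc, tenascin C, a matricellular glycoprotein of remodelling tissue, lay between -0.19 and 0.36 on all 8 S3KO arrays at 1, 2 and 4 h, against -4.39 and -0.15 on replicates 2 and 3 at 0 h and a blank on replicate 1. The change in Tnc was 2.33 ± 0.40 (limma, adjusted p 0.00106), and without replicate 2 at 0 h it was 0.21 with an adjusted p of 1 by limma. Adam8, a membrane metalloprotease of immune and remodelling cells, lay between -1.03 and 0.01 on the 7 S3KO arrays at 1, 2 and 4 h that measured it, against 1.74, 3.87 and -0.57 at 0 h. The change in Adam8 was -2.13 ± 0.56 (limma, adjusted p 0.0392), and without replicate 2 at 0 h it was -1.04 with an adjusted p of 0.817 by limma. Without the 3 S3KO arrays that ran against the others, Tnc stood at 0.27 and Adam8 at 0.16, and neither was called. With the 0 and 0.3 h arrays as the baseline Tnc gave 1.17 and Adam8 -0.45, and neither was called. A fit on the S3KO arrays alone called neither, with adjusted p of 0.626 for Tnc and 0.628 for Adam8 by limma. Tnc was called in 10 of the 11 fits that left out 1 array each, and Adam8 in 4 of 11.

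Other members stood out on the same 0 h arrays. Fn1 had 1.53, 2.59 and 0.33 in S3KO at 0 h, and its change at 1 to 4 h was -1.05 ± 0.39 (limma, adjusted p 0.187). Adamts10 gave -1.60 ± 0.48 (limma, adjusted p 0.0746). Col6a3, a chain of collagen VI, had 0.84, 0.81 and -1.58 at 4 h, against -1.20, -1.41 and -0.98 at 0 h, and a change at 1 to 4 h of 1.20 ± 0.37 (limma, adjusted p 0.0841). Without the 3 arrays that ran against the others, Fn1 gave 0.29 ± 0.56, Adamts10 -0.35 ± 0.73 and Col6a3 1.06 ± 0.60, so Fn1 changed sign. For Col6a3 all 3 arrays at 0 h were low, replicate 3 included. Fn1 and Adamts10 were highest on replicate 2, as was Adam8.

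**Figure D2:**
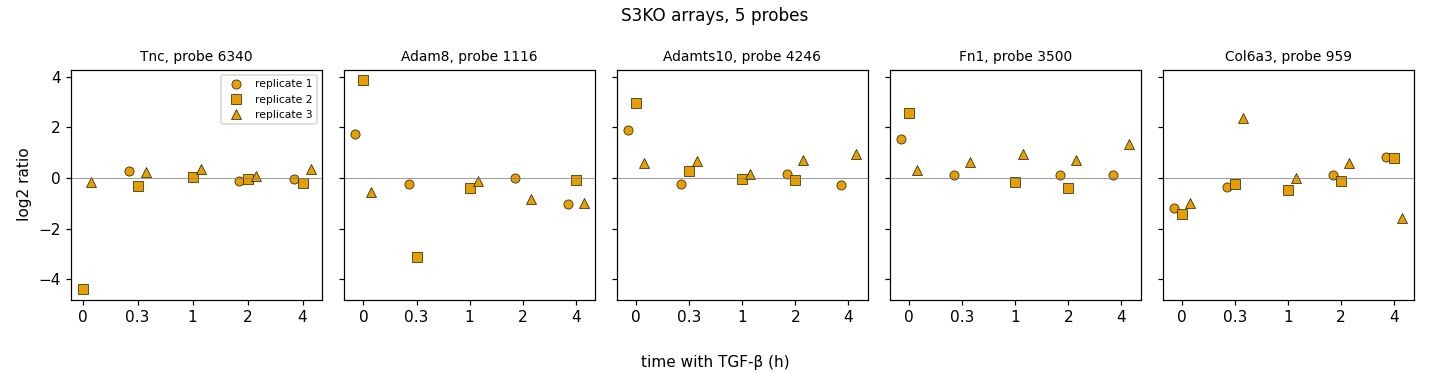
Log2 ratios of single S3KO arrays (vertical axis) by time with TGF-β in hours (horizontal axis) for 5 probes, with a symbol for each replicate. The arrays at 1, 2 and 4 h lie between -0.19 and 0.36 for Tnc, against -4.39 on replicate 2 at 0 h, and for Adam8 that replicate stands at 3.87.

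At 4 h alone a few members were called, some higher and some lower. The 4 h comparisons were taken as results of their own after values had been seen. Against own 0 h arrays, limma called 0 of 70 tested members in S2KO, 1 of 75 in U0126, 0 of 73 in S2WT, 1 of 68 in S3KO and 0 of 76 in S3WT. The background was 0.899% of all tested probes in S2KO, 0.29% in U0126, 0.383% in S2WT, 0.423% in S3KO and 0.244% in S3WT. Against the pooled 0 h arrays the calls were 2 of 62 in S2KO, 2 of 64 in U0126, 1 of 63 in S2WT, 0 of 62 in S3KO and 0 of 63 in S3WT. The background was 3.86% in S2KO, 1.19% in U0126, 1.45% in S2WT, 0.117% in S3KO and 0.298% in S3WT. Counts this small do not set the members apart. At an unadjusted p under 0.05 the pooled comparison had 8 members in S2KO (14.8% of all tested probes), 9 in U0126 (9.11%), 6 in S2WT (10.5%), 4 in S3KO (3.77%) and 5 in S3WT (6.75%). Against own 0 h arrays it had 11 in S2KO (11.1%), 6 in U0126 (7.06%), 2 in S2WT (8.46%), 9 in S3KO (10.6%) and 6 in S3WT (6.01%).

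Overlap of single arrays was also counted, in both directions. All 4 h arrays lay above all 0 h arrays of the line for 5 of 70 members in S2KO (8.37% of all probes), 8 of 75 in U0126 (10%), 5 of 73 in S2WT (11.1%), 4 of 68 in S3KO (7.83%) and 8 of 76 in S3WT (8.24%). They lay below for 11 members in S2KO (9.13%), 12 in U0126 (10.4%), 5 in S2WT (9.82%), 6 in S3KO (8.03%) and 5 in S3WT (8.6%). The 11 below in S2KO are 15.7% of the members and include both probes of Col6a1. The 12 in U0126 are 16% and include them too. On the S2KO 0 h arrays limma called both Col6a1 probes, Col3a1 4857 and Lamb2 811 away from 0, all among those 11. On the U0126 0 h arrays it called Adam15, Serpinf1 and Lamb2 7089 away from 0, all among those 12. The part of these 0 h values in the shares was not tested. Adam12 lay above in U0126, S2WT, S3KO and S3WT, and Tnc in U0126 and S3WT.

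Adam12, a metalloprotease of mesenchymal cells that cleaves matrix and growth factor precursors, rose in U0126. Its U0126 ratios were 1.00, 0.84 and 0.84 at 4 h, against -0.10, 0.02 and -0.19 at 0 h. The rise of Adam12 was 0.88 ± 0.18 against the pooled 0 h arrays (limma, adjusted p 0.00432), called in all 18 fits that left out 1 array each. Against own 0 h arrays it was 0.99 ± 0.23 (limma, adjusted p 0.0345), which was called in 0 of 6 such fits, where the values were 0.93 to 1.04. With arrays not centred Adam12 was no longer called, at 0.80 against the pool (limma, adjusted p 0.0612) and 1.02 against own 0 h arrays (limma, adjusted p 0.171).

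In the other lines Adam12 was not called at 4 h, which is not a test of a difference between lines. For U0126 minus S2WT on the 4 h arrays, limma called 0 of 77 tested members and 0 of 8660 tested probes. As a difference of responses at 4 h, it called 0 of 69 tested members and 1 of 8326 tested probes. The 4 h ratios of Adam12 were 0.32 and 0.85 in S2KO, with 1 blank, against 0.29, 0.73 and 0.46 in S2WT. They were 0.19, 0.06 and 0.27 in S3KO, against 0.62, 0.50 and 0.63 in S3WT. The 4 h arrays lay above every earlier array of their line in U0126, S2WT and S3WT. Such arrays without overlap were found for 1 of 75 members in U0126 (1.13% of all probes), 2 of 73 in S2WT (1.14%), 0 of 68 in S3KO (0.29%) and 1 of 76 in S3WT (0.581%), so the number of members is near the background. The other member in S2WT was a Col23a1 probe. Against the pooled 0 h arrays Adam12 gave 0.57 ± 0.21 in S2KO and 0.48 ± 0.18 in S2WT, with 0.16 ± 0.18 in S3KO and 0.57 ± 0.18 in S3WT.

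Tnc rose in S2KO against the pooled 0 h arrays. Its S2KO ratios were 0.81, 0.21 and 0.93 at 4 h, against -0.42, -0.21 and 0.32 at 0 h, so the groups overlapped. The Tnc change was 1.13 ± 0.32 in S2KO (limma, adjusted p 0.0318), with 0.81 ± 0.32 in U0126 and 0.89 ± 0.32 in S2WT, and 0.52 ± 0.32 in S3KO and 1.10 ± 0.32 in S3WT. All 5 include the S3KO 0 h arrays in their baseline, replicate 2 with its -4.39 among them. Without the S3KO 0 h arrays the S2KO value was 0.69 and the adjusted p 0.334 by limma, and without replicates 1 and 2 alone 0.71 and 0.0166. The S2KO call of Tnc was also lost with arrays not centred (1.16, limma, adjusted p 0.0569) and with arrays scaled to a common spread (0.96, limma, adjusted p 0.243). Against own 0 h arrays Tnc gave 0.75 in S2KO, 0.51 in U0126, 0.44 in S2WT and 0.45 in S3WT, none called, and 2.31 in S3KO, which was called and stood at 0.18 without the 3 S3KO arrays that ran against the others.

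**Figure D3:**
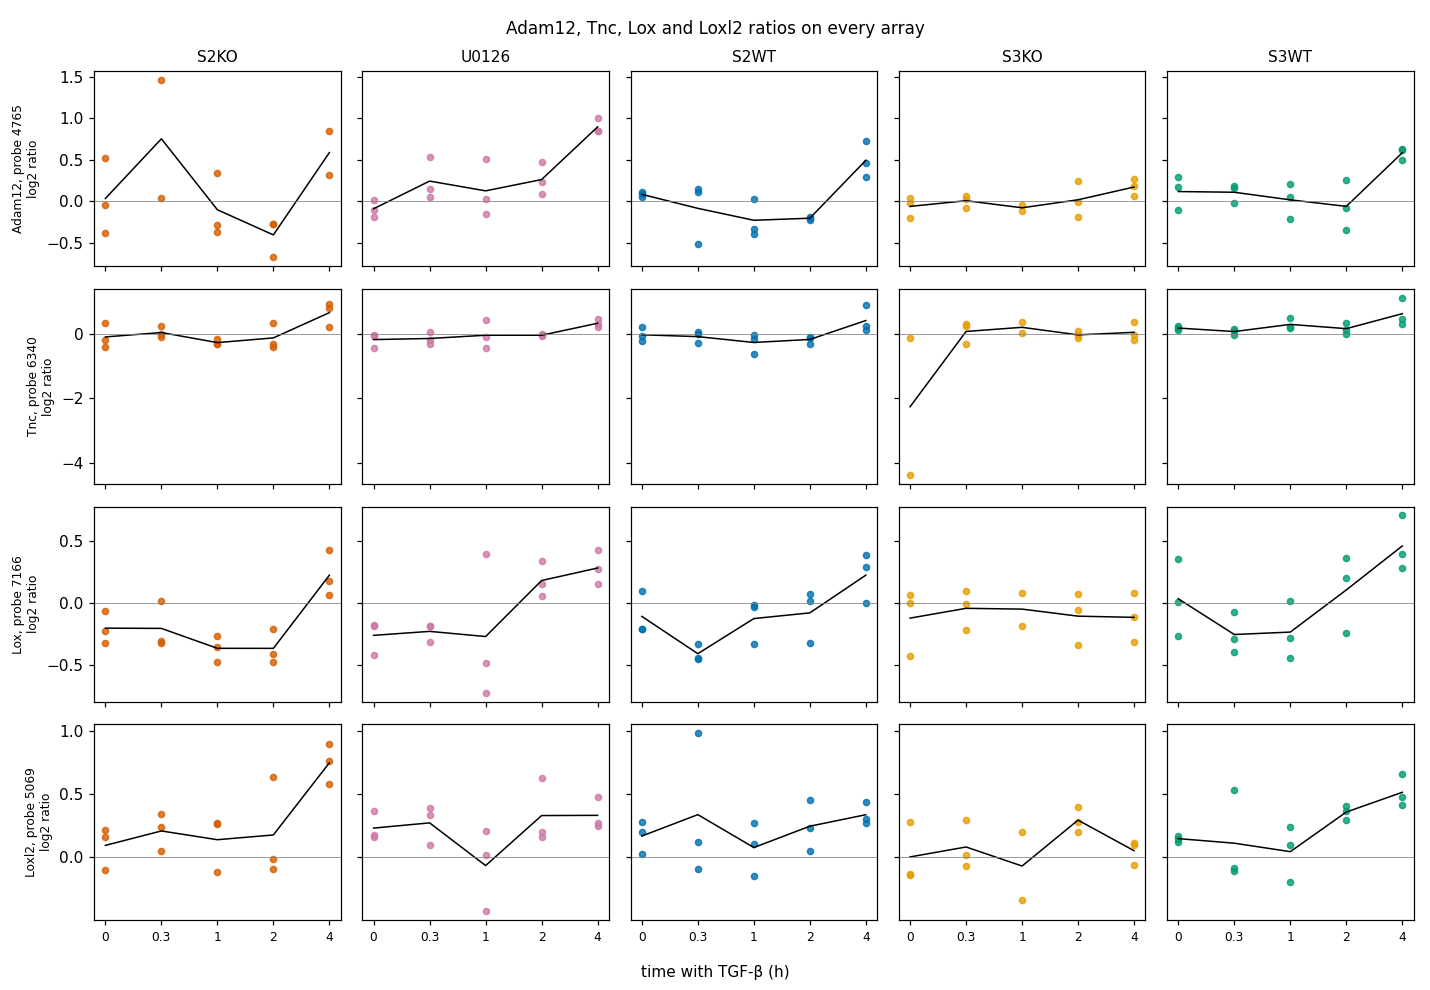
Log2 ratios of single arrays (vertical axis) by time with TGF-β in hours (horizontal axis) for Adam12, Tnc, Lox and Loxl2, with rows for genes and columns for S2KO, U0126, S2WT, S3KO and S3WT. Points are arrays and lines their means. For Adam12 the 4 h arrays of U0126 sit at 0.84 to 1.00, above its earlier arrays, while those of S3KO sit at 0.06 to 0.27.

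Lysyl oxidases, which crosslink collagen and elastin, gave small values. Loxl2 on probe 5069 had 0.76, 0.58 and 0.90 at 4 h in S2KO, against 0.22, -0.10 and 0.16 at 0 h, without overlap. Loxl2 rose there by 0.62 ± 0.16 against the pooled 0 h arrays (limma, adjusted p 0.0128), called in 16 of 18 fits that left out 1 array each. With arrays scaled to a common spread Loxl2 gave 0.46 and was not called (limma, adjusted p 0.231). Without S3KO 0 h replicates 1 and 2 in the pool it gave 0.56. The other Loxl2 probe, 3389, gave 0.29 ± 0.25 in the same comparison and was not called. On probe 5069 the other lines gave 0.20 in U0126 and 0.21 in S2WT, with -0.08 in S3KO and 0.39 in S3WT, each with an SE of 0.16.

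Lox had 0.07, 0.18 and 0.43 at 4 h in S2KO, against -0.22, -0.32 and -0.06 at 0 h, and its 4 h arrays lay above every earlier S2KO array. This held for 1 of 70 members in S2KO and for 0.969% of all probes. In S3WT Lox had 0.71, 0.28 and 0.40 at 4 h, against -0.27, 0.36 and 0.01 at 0 h, and the groups overlapped. The pooled 4 h values of Lox were 0.36 in S2KO, 0.41 in U0126, 0.36 in S2WT, 0.02 in S3KO and 0.59 in S3WT, each with an SE of 0.15. None was called, and the S3WT value had an adjusted p of 0.0601 by limma. Without S3KO 0 h replicates 1 and 2 in the pool it was 0.65 and called (limma, adjusted p 0.0268).

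The other 4 h calls were decreases that rested largely on single arrays. Lamc1, the laminin chain shared by most laminins, had -1.20, -0.41 and 0.08 at 4 h in U0126 on probe 2239, against 0.25, 0.16 and 0.19 at 0 h. Lamc1 fell by 0.64 ± 0.17 there (limma, adjusted p 0.0426), and was called in 5 of 18 fits that left out 1 array each. Scaled to a common spread it was -0.63 (limma, adjusted p 0.0582), and without S3KO 0 h replicates 1 and 2 in the pool -0.66. Its other probes gave no call. Lamb2, another laminin chain, had 0.16, -1.91 and 0.26 at 4 h in S2WT on probe 7089, against 0.33, 0.45 and 0.02 at 0 h. Lamb2 fell by 0.94 ± 0.26 (limma, adjusted p 0.0474), and was called in 4 of 18 fits that left out 1 array each. Without replicate 2 at 4 h the value was -0.24. Scaled to a common spread it was -0.99 (limma, adjusted p 0.0833), and without S3KO 0 h replicates 1 and 2 in the pool -1.13. The other Lamb2 probe, 811, gave -0.17 in S2WT at 4 h against the full pool and was not called.

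Adam19, a metalloprotease of the same subfamily as Adam12, came near the threshold in U0126. On probe 7613 it had 0.73, 0.64 and 0.53 at 4 h, against -0.05, -0.23 and -0.08 at 0 h, without overlap. The pooled value was 0.68 ± 0.19 (limma, adjusted p 0.0597), and without S3KO 0 h replicates 1 and 2 it was 0.79 and called (limma, adjusted p 0.0179). Its other probes gave 0.58 ± 0.23 and -0.23 ± 0.27, so the 3 probes of Adam19 did not move alike.

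Promoter sequence was read for members in the RefSeq promoter table of build GRCm38.p6, which gives 300 bases around a start. It lists 47 promoters for 39 member genes, and Adam12, Adamts10, Lox, Loxl2 and Lamc1 are named only. The AP-1 motif TGANTCA, searched on both strands, was in 5 of the 47 (10.6%) and in 7.81% of 32851 promoters. The Smad-binding core CAGACA, on both strands, was in 11 (23.4%), beside 21% of all promoters. A match is a description of letters, not a site. The promoters of Tnc and Adam19 are shown as examples of genes described at 4 h whose listed promoters hold a match. Others described at 4 h, such as Lamb2 and Sparc with CAGACA, also hold a match and are not shown. The capitals mark the matches: CAGACA read on either strand for Tnc, at chr4:64046887-64047186 on the minus strand, and TGAGTCA for Adam19, at chr11:46055734-46056033 on the plus strand. The matches begin at -71 and 40 from the Tnc start and at -131 from the Adam19 start.
Tnc: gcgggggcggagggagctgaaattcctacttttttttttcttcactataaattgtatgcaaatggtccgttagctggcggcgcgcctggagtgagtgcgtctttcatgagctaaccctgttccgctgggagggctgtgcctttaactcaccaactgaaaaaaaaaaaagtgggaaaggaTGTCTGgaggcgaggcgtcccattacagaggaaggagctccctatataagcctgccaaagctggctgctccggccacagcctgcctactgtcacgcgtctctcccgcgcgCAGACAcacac
Adam19: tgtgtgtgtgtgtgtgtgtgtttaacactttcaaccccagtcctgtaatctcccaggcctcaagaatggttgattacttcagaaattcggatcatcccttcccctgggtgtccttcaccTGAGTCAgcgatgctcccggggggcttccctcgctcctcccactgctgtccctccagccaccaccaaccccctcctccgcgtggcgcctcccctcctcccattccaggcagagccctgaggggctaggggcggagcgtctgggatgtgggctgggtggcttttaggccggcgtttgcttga
The other 2 listed starts of Adam19 hold neither motif, and the other start of Tnc overlaps the window shown and holds 1 match.

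Whether the lines differed in their response was tested directly. For S2KO minus S2WT, limma called 0 of 61 members as a difference of responses (0.0386% of all tested probes), for U0126 minus S2WT 0 of 64 (0.0252%) and for S3KO minus S3WT 0 of 59 (0.126%). At an unadjusted p under 0.05 these held 4 members for S2KO (7.13%), 4 for U0126 (6.11%) and 7 for S3KO (9.05%). Set against each other directly, the arrays at 1, 2 and 4 h gave 0 of 66 members for S2KO minus S2WT (0.326%), 0 of 70 for U0126 minus S2WT (0%) and 0 of 63 for S3KO minus S3WT (0%). Their unadjusted counts were 5 for S2KO (10.4%), 11 for U0126 (4.88%) and 4 for S3KO (5.95%). The 11 in U0126 are 15.7% of its tested members. They include Adam12 at 0.41 ± 0.13 and Adam33 at -1.18 ± 0.37, each with an adjusted p of 0.774 by limma, while the 3 probes of Lamc1 took both signs.

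Against the pooled 0 h arrays, S3KO had the smallest 4 h values for Adam12, Lox, Loxl2 (probe 5069) and Tnc, an order picked after the values were seen, but the difference from S3WT did not pass the test. On the 4 h arrays S3KO minus S3WT was -0.58 ± 0.19 for Lox (limma, adjusted p 0.509). It was -0.46 ± 0.20 for Loxl2 on probe 5069, -0.41 ± 0.23 for Adam12 and -0.58 ± 0.41 for Tnc. The 95% interval for Lox was -0.97 to -0.19, and for Tnc it ran from -1.41 to 0.25. Limma called 0 of 73 tested members there (0.0694% of all tested probes) and had 5 at an unadjusted p under 0.05 (4.61%). On the same arrays the log2 ratio of Pdgfra, a fibroblast marker that is no member, was 3.87 ± 0.63 higher in S3KO than in S3WT (limma, adjusted p 0.00138). Of 7 tested fibroblast marker probes only this 1 was called, with 5 above 0, 2 below and a median of 0.30. The part of Pdgfra in the S3KO values was not tested. Hbegf, a growth factor that is no member, was called at 1 to 4 h against the pooled 0 h arrays, at 2.23 in S2KO, 1.15 in U0126, 1.81 in S2WT and 1.36 in S3WT, and gave 0.12 in S3KO. Against own 0 h arrays Hbegf was called in S2KO and S2WT only, with adjusted p of 0.45 in U0126, 0.946 in S3KO and 0.15 in S3WT by limma. Smad7, a feedback inhibitor of the pathway, gave 0.41 ± 0.14 in S2WT against the pool on probe 7665 and was not called there (limma, adjusted p 0.167).

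Several members differed from 0 on the 0 h arrays, where both channels were without TGF-β. Limma called 7 of 76 members there in S2KO (4.66% of all tested probes), 4 of 76 in U0126 (5.34%), 0 of 74 in S2WT (0.297%), 6 of 70 in S3KO (3.24%) and 3 of 79 in S3WT (3.01%). With replicate 3 as the only S3KO array at 0 h, it called 3 of 66 (1.96%). Sparc, a collagen-binding matricellular protein, had 0.78, 0.57 and 0.94 at 4 h in S2KO, against 0.59, 0.26 and 0.27 at 0 h. In S3WT it had 0.27, 0.58 and 0.43 at 4 h, against 0.91, 0.59 and 0.71 at 0 h, so its ratios were above 0 with and without TGF-β. Its response against the pooled 0 h arrays was 0.26 ± 0.11 in S2KO, -0.04 ± 0.12 in U0126, 0.13 ± 0.11 in S2WT, -0.01 ± 0.12 in S3KO and 0.00 ± 0.11 in S3WT.

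**Figure D4:**
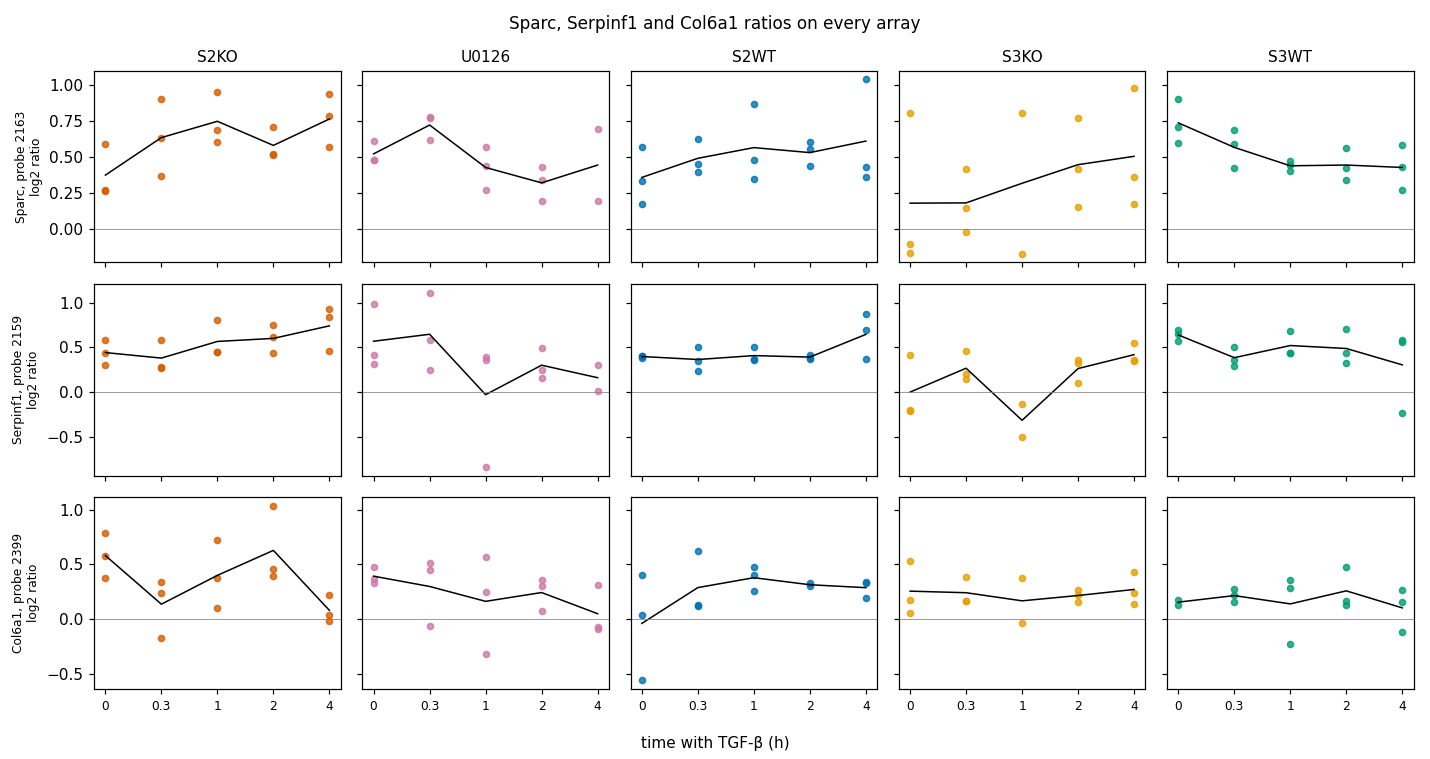
Log2 ratios of single arrays (vertical axis) by time with TGF-β in hours (horizontal axis) for Sparc, Serpinf1 and Col6a1, with rows for genes and columns for S2KO, U0126, S2WT, S3KO and S3WT. Points are arrays and lines their means. The Sparc ratios of S3WT lie above 0 at every time, with 0.27 to 0.58 at 4 h, against 0.59 to 0.91 at 0 h.

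Probes of one gene often disagreed. For 15 genes with several probes, the 25 probe pairs had a median Pearson correlation of 0.10 over the arrays, from -0.27 to 0.70. The 1711 pairs of different genes had a median of 0.00. Only Col6a1 (0.70), Lamb2 (0.65) and Col5a2 (0.62) had a pair over 0.5, while Loxl2 had 0.19 and Mmp2 -0.01. The points share their arrays, so these are descriptions. The within-group SD of the members had a median of 0.55, from 0.21 for Mmp2 to 1.96, against 0.58 for all probes. The SD was under 0.5 for 34 members and over 1 for 22. All 74 arrays measured 20 members (25.3%), beside 25% of all probes.

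**Figure D5:**
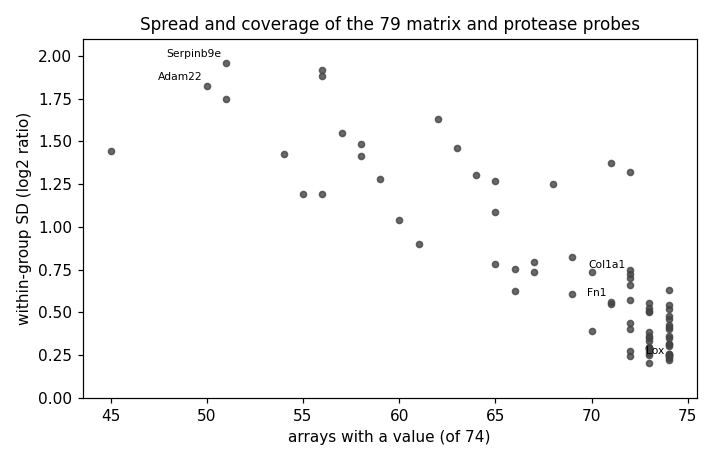
Within-group SD on the log2 scale (vertical axis) against the number of arrays with a value (horizontal axis) for each of the 79 matrix and protease probes. The SDs run from 0.21 to 1.96, and 22 probes lie over 1.

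Matrix genes outside these families were read from a list of receptors, proteoglycans, crosslinkers and other proteases, of which 30 of 81 genes had 39 probes. Against the pooled 0 h arrays at 1 to 4 h, limma called 3 of 36 tested probes higher in S2KO, 1 of 36 in U0126, 1 of 35 in S2WT, 0 of 33 in S3KO and 0 of 36 in S3WT, and none lower. The background was 2.49% of all tested probes in S2KO, 0.782% in U0126, 1.27% in S2WT, 0.0141% in S3KO and 0.146% in S3WT. Integrin β1, Itgb1, which pairs with many integrin α chains as a matrix receptor, rose by 0.58 ± 0.14 in S2KO, 0.58 ± 0.14 in U0126 and 0.57 ± 0.14 in S2WT. In S2KO the fibronectin receptor chain Itga5 rose by 0.59 ± 0.17 and the matricellular Ccn1 by 1.39 ± 0.28. At 4 h the calls were 4 higher and 1 lower of 36 in S2KO (3.86% of all tested probes), 1 higher of 36 in U0126 (1.19%), 1 higher of 35 in S2WT (1.45%), 0 of 35 in S3KO (0.117%) and 0 of 36 in S3WT (0.298%). In S2KO at 4 h Itgb1 rose by 0.84, Itga5 by 1.34, Ccn1 by 2.05 and the hyaluronan receptor Cd44 by 0.92, while the integrin chain Itga4 gave -2.31 ± 0.69 and fell. Itgb1 rose at 4 h by 0.89 in U0126 and 0.96 in S2WT. These 4 h values too are against the pooled 0 h arrays. Unlike those of members, the values of this list, Hbegf and Pdgfra were not recomputed without S3KO 0 h replicates 1 and 2. Nor were they recomputed with single arrays left out. Against own 0 h arrays limma called none of this list at 1 to 4 h in any line. At 4 h against own 0 h arrays it called 1 of 38 in S2WT (0.383% of all tested probes), Itgb1 at 1.25. In S2KO it called 1 of 39 (0.899%), Itga5 at 1.35, and none in the other lines. Of the fibroblast markers 4 of 11 genes had 8 probes, and only Pdgfra was called, at 4 h: -1.54 ± 0.44 in S2KO and 2.70 ± 0.52 in S3KO. The epithelial, leukocyte and endothelial lists had probes for 2, 3 and 3 genes, and limma called 0 of them, with at most 2 probes of a list at an unadjusted p under 0.05 against the pooled 0 h arrays.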

How the data were processed

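The authors deposited a log2 ratio for each of 8976 probes on 74 arrays, which by its sign sets 1 channel over the other. The sources used here do not give dyes, scanner or normalisation. Blanks (41670) and 1344 cells at the ceiling of 16.61 were treated as missing, and each array was centred on its median. In R 4.3.3, group means over 25 groups of line and time were fitted by least squares for each probe, and variances were moderated with limma 3.58.1. P-values were adjusted by Benjamini-Hochberg over all tested probes of a contrast, with 0.05 as the threshold. A probe was tested when at least 2 arrays of each group measured it. The pipeline was tested on simulated data. The number of arrays limits the precision, and the depth of signal is unknown.

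Members, lists and comparisons were chosen with earlier results of these data known. Named genes were those called, those of a list of 46 matrix genes, the extremes of each role group and further probes of these genes. Col6a3, Col23a1, Hbegf, Smad7 and Serpinf2 were named after their values were seen. Alternatives covered centring, scaling, the baseline, the replicate block, probe coverage and each array left out.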

Additional observations from a re-analysis of the deposited data

Results flagged for a closer look

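The 0.3 h arrays were outside the comparisons of the report, and in S3KO limma called 3 of 68 tested members there against the 0 h arrays of the line, beside 0.845% of all tested probes. Adam8 gave -3.37 (limma, adjusted p 0.0315), Tnc 2.34 (limma, adjusted p 0.012) and Col6a3 1.78 (limma, adjusted p 0.0428). Tnc had 0.29, -0.34 and 0.24 at 0.3 h, against -4.39 and -0.15 at 0 h with 1 blank. Adam8 had -0.25 and -3.13 at 0.3 h, against 1.74, 3.87 and -0.57 at 0 h. Col6a3 had -0.37, -0.26 and 2.37 at 0.3 h, against -1.20, -1.41 and -0.98 at 0 h. Without S3KO 0 h replicates 1 and 2 none of the 3 was called, with -1.12 for Adam8, 0.21 for Tnc and 1.57 for Col6a3, and limma called 1 of 65 members, a Serpinf2 probe that rests on the remaining 0 h array at 4.997. These 0.3 h arrays carry channel labels without TGF-β in both channels, so treatment and label cannot be told apart. The other lines had 0 member calls at 0.3 h by limma.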

How the results depend on the processing

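Of 161 recomputed counts of called members, 117 stayed within 1.5 times the value given and 44 moved. Tested against 0 instead of the 0 h arrays, the counts against own 0 h became 16 of 71 in S2KO (26.6% of all tested probes), 11 of 76 in U0126 (14.3%), 16 of 72 in S2WT (23.1%) and 7 of 75 in S3WT (8.62%). With a replicate block the counts were 1 in S3WT, 1 for S3KO minus S3WT and 2 in S3KO at 4 h, and the block changed no other count, but with it Adam8 in S3KO was no longer called (-1.999, limma, adjusted p 0.0687). Same-numbered arrays correlated with medians of 0.01 to 0.17 by line, against -0.10 to -0.02 for different numbers. The median was higher for same numbers in every line, while no line had every pair over 0.1. Whether the numbers pair samples is thus not settled. The main counts carry no pairing, which only the block counts do. With only probes measured on every array, they were 0 in S3KO, 0 in U0126 against the pool, 0 at 4 h in S3KO and U0126 against own 0 h, and 1 each at 4 h against the pool in S2KO, U0126 and S3WT. With the 4 h group only they were 1 in S3KO and U0126 against own 0 h, and 2 in S2KO, 2 in U0126 and 1 in S2WT against the pool. A baseline of 0 and 0.3 h gave 0 in S3KO, also at 4 h, and a fit on the arrays of S3KO alone gave 0. Without centring the pooled counts were 0 in U0126 and 1 in S2WT, and at 4 h 1 in S2KO and 0 in U0126 against own 0 h, and 1 in S2KO and 1 in U0126 against the pool. With arrays scaled to a common spread they were 2 in U0126 and 1 in S3WT against the pool, 1 for S3KO minus S3WT, 3 in S3KO at 4 h, and at 4 h against the pool 0 in S2KO, 1 in U0126, 0 in S2WT and 3 in S3WT. With a pool that left out S3KO, U0126 had 0 and S2KO at 4 h had 1. Turning the sign of S3KO 1 h replicate 2 gave 1 for S3KO minus S3WT. Leaving out the 3 S3KO arrays that ran against the others, chosen after seeing the data, gave 0 in S3KO against own 0 h, 2 in U0126 and 1 in S2WT against the pool, and at 4 h against the pool 4 in U0126 and 1 in S3WT, and Adam8 in S3KO reversed to 0.16. The causes were not tested.

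Leaving out 1 array at a time, the counts against own 0 h ranged from 0 to 1 in S2KO, 0 to 5 in S3KO and 0 to 2 in S3WT and stayed at 0 in U0126 and S2WT. The highest, 5, came without S3KO 0 h replicate 3. Over the same fits the calls among all probes ranged from 16 to 92 in S2KO, 4 to 29 in U0126, 11 to 75 in S2WT, 45 to 418 in S3KO and 2 to 57 in S3WT. Against the pool they ranged from 0 to 2 in U0126, 0 to 1 in S2WT and 0 to 1 in S3KO, and stayed at 0 in S2KO and S3WT, while those among all probes ranged from 117 to 325 in S2KO, 23 to 104 in U0126, 55 to 123 in S2WT, 0 to 25 in S3KO and 3 to 24 in S3WT. The S3KO minus S3WT difference ranged from 0 to 2 (0 to 189 among all probes), and the other differences and the direct comparisons stayed at 0. At 4 h against own 0 h they ranged from 0 to 1 in S2KO, 0 to 1 in U0126 and 0 to 4 in S3KO, with 0 in S2WT and S3WT, and against the pool from 0 to 2 in S2KO, 1 to 3 in U0126, 0 to 1 in S2WT and 0 to 1 in S3WT, with 0 in S3KO. Among all probes the 4 h ranges were widest in S2KO, at 11 to 293 against own 0 h and 63 to 496 against the pool, and in S3KO, at 13 to 382 against own 0 h. Of 55 values of called members under the other settings, 30 stayed called, 24 kept their sign and were no longer called, and 1 reversed.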
